A study of Homo sapiens with 12 samples.

Results

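The comparison described here is that of siRNA s18076, which targets MED26, with non-targeting control siRNA in HEK293T, a cell line from human embryonic kidney that expresses the large T antigen of SV40. It uses 6 of the 12 arrays of the series: 3 from cells given s18076 and 3 from cells given a control siRNA. The other 6 arrays, 3 each for the MED26 siRNAs s18074 and s18075, entered the estimate of the spread and the direct contrasts between siRNAs. All groups received 25 nM of siRNA, RNA was taken after 48 hours, and all groups were plain HEK293T cells with no other allele or agent named. The labels of the 3 control arrays name 3 different non-targeting siRNAs, numbered 2, 3 and 4, while the protocol names only number 2, so the control group may hold more than 1 sequence. Replicates are numbered without a statement that they were separate cultures. The p-values therefore reflect how far these arrays scatter, which can be purely technical, and the 3 arrays in a group limit the precision of every value. Each of 19775 genes was read from its brightest probe set over the 12 arrays, among probe sets that name a single gene. Levels are given as log2 intensity, changes as the difference of mean log2 intensity (s18076 minus control), and errors of changes as the standard error (SE) of the model fitted with limma.

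MED26 is a subunit of Mediator, the large complex that carries signals from DNA-bound transcription factors to RNA polymerase II. In metazoan cells MED26 is found in the form of Mediator that lacks the kinase module, and its N-terminal domain can bind both the general initiation factor TFIID and elongation complexes that contain P-TEFb, the kinase that releases paused polymerase. Mediator with MED26 has been linked to transcription of small nuclear RNA genes and of replication-dependent histone genes, whose mRNAs lack a poly(A) tail.

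MED26 itself was lower in the s18076 arrays. Its brightest probe set read 9.84, 9.87 and 9.84 in the control arrays (log2 intensity) and 8.80, 8.79 and 8.73 in the s18076 arrays, and the groups did not overlap. This was a fall by 1.08 ± 0.06 on the log2 scale (limma, Benjamini-Hochberg adjusted p = 5.18e-07), which left 47.3% of the control signal. The exact two-sided permutation test over the 20 splits of these 6 arrays gave p = 0.1, the smallest it can give. Against the other siRNAs, the level with s18076 differed from that with s18074 by 0.02 ± 0.06 (adjusted p = 0.925) and lay below that with s18075, at a log2 difference of -0.51 ± 0.06 (limma adjusted p = 0.000224). With the mean of all its probe sets MED26 fell by 0.40 ± 0.09 (limma adjusted p = 0.00961). The further MED26 probe sets, both dim, gave log2 changes of -0.30 and 0.18 and did not pass the test. In RNA from bulk cells, fewer cells that express a gene and less RNA per cell cannot be told apart.

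The change was broad and mostly small. Of 19775 genes, 3741 (18.9%) passed limma's test at an adjusted p (Benjamini-Hochberg) under 0.05, 2037 higher (10.3%) and 1704 lower (8.62%). The median change of the called genes was 0.33 for those that rose and -0.32 for those that fell. Only 375 of the rises and 286 of the falls reached 0.5 on the log2 scale, 25 and 24 reached 1, and 2 and 2 reached 1.5. The smallest called rise was 0.15 and the smallest called fall -0.14. Among the called genes, the 6 arrays did not overlap for 2013 of the 2037 that rose and for 1681 of the 1704 that fell, while over all genes non-overlapping arrays were seen for 16.9% upwards and 15.2% downwards. The deposited scale matters for the balance: rises made up 54.5% of the calls as deposited and 42.8% after each array was centred on its median, which moved the median of all genes by -0.04.

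Calls were rare among dim genes. In the dimmest of 5 equal groups of genes 1.01% rose and 1.52% fell, in the next 3.16% and 3.08%, and in the 3 brighter groups 13.5%, 19.2% and 14.6% rose and 9.41%, 14.7% and 14.3% fell. The shares over all genes, 10.3% and 8.62%, include the dim groups. The share of a list of mostly bright genes is therefore to be read beside those of the 3 brighter groups as well. The replicate 1 arrays of all groups deviated together from their group means, so the comparison was also made on replicates 2 and 3 alone. That fit called 1716 genes higher and 1403 lower. In the replicate 1 arrays, which it did not use, 1631 (95.0%) of these were higher and 1351 (96.3%) lower, where 51.6% and 48.3% of all genes were. A further probe set existed for 1389 of the genes called higher, and for 489 of them it was called in the same direction. For the genes called lower these numbers were 1066 and 330. Probe sets of 1 gene were called in opposite directions for 60 and 52 of these genes.

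**Figure D1:**
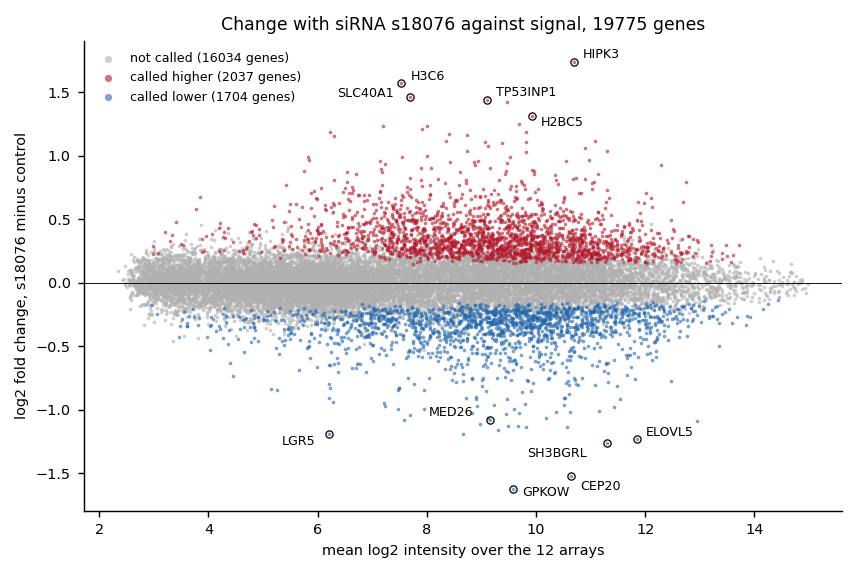
Each point is 1 of 19775 genes, placed by its mean log2 intensity over the 12 arrays (x axis) and its log2 fold change, s18076 minus control (y axis), with 2037 genes called higher in red and 1704 called lower in blue. Calls lie mostly above a mean log2 intensity of 6.57, and HIPK3 (1.74) and GPKOW (-1.63) mark the ends of the range.

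HIPK3, which encodes a homeodomain-interacting protein kinase, showed the largest rise. Its probe set read 9.64, 9.91 and 9.88 in the control arrays (log2 intensity) and 11.42, 11.61 and 11.60 with s18076, a rise of 1.74 ± 0.08 on the log2 scale or 3.33 times the control signal (limma adjusted p = 1.07e-07). The histone H3 gene H3C6 went from 6.35, 6.52 and 6.32 to 7.79, 7.99 and 8.11, a rise of 1.57 ± 0.10 (adjusted p = 6.79e-07). All 3 s18076 arrays lay far above the 3 controls for both genes. SLC40A1, which encodes ferroportin, the exporter of iron from cells, read 6.67, 7.0 and 6.92 in the controls and 8.24, 8.39 and 8.35 with s18076, and rose by 1.46 ± 0.08. TP53INP1, which p53 induces under stress and which promotes autophagy and cell death, read 8.26, 8.23 and 8.12 and 9.60, 9.65 and 9.69, and rose by 1.44 ± 0.07. NUP58, a nucleoporin of the central channel of the nuclear pore, read 8.61, 8.82 and 8.81 and 9.94, 10.34 and 10.23, and rose by 1.42 ± 0.10. The pore gene had the widest spread of these with s18076, yet its lowest s18076 array was above its highest control. For NUP58, SLC40A1 and TP53INP1 no further probe set was called. The dimmer ones of NUP58 gave -0.04, -0.23 and 0.41, and those of TP53INP1 0.107 and 0.0013.

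Among the remaining large rises, the histone genes H2BC5, H2BC21 and H1-2 rose by 1.32 ± 0.08, 1.23 ± 0.07 and 1.18 ± 0.07. SPOPL, a substrate adaptor of cullin-3 ubiquitin ligases, rose by 1.25 ± 0.06, with control arrays at 8.98, 9.02 and 8.99 and s18076 arrays at 10.14, 10.32 and 10.29 (log2 intensity), and its other probe set gave 1.03 and was also called. CDC37L1, a relative of the HSP90 cochaperone CDC37, rose by 1.17 ± 0.08, and both of its other probe sets were called higher, at 1.04 and 0.40. GPR137C, which encodes a multipass membrane protein, rose by 1.23 ± 0.07, and NHLRC3, a protein with NHL repeats, by 1.21 ± 0.06. The other NHLRC3 probe sets gave 0.11 and 0.16, neither called. The zinc finger gene ZNF226 rose by 1.17 ± 0.12 but had loose replicates, at 7.80, 8.03 and 8.29 in the controls and 8.97, 9.31 and 9.33 with s18076, and none of its 3 other probe sets was called (0.21, 0.15 and 0.13). MAGEB2, a cancer-testis antigen gene, rose by 1.19 ± 0.14 from 6.05, 5.66 and 5.77 to 7.02, 6.94 and 7.08, and lies among the dimmest 40% of genes. Among the 14 largest rises 10 were covered by more than 1 probe set, and 4 of those were called higher by another as well.

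The largest falls were led by a splicing factor and a centrosomal protein. GPKOW, a G-patch protein of the spliceosome, read 10.00, 10.02 and 9.91 in the control arrays (log2 intensity) and 8.42, 8.25 and 8.37 with s18076, and fell by 1.63 ± 0.06 on the log2 scale (limma adjusted p = 2.82e-08), to 32.4% of the control signal. CEP20, a protein of centriolar satellites and the base of cilia, read 11.05, 11.03 and 10.99 and 9.55, 9.44 and 9.52, and fell by 1.52 ± 0.05 (adjusted p = 2.23e-08), and its other probe set fell by 1.82. SH3BGRL, a small protein with a thioredoxin-like fold, read 11.55, 11.49 and 11.54 and 10.27, 10.26 and 10.27, and fell by 1.26 ± 0.05. The s18076 arrays of SH3BGRL were nearly equal, and for these 3 genes no s18076 array came near a control array. ELOVL5, the elongase of polyunsaturated fatty acids, read 12.35, 12.21 and 12.21 and 11.01, 11.08 and 10.97, and fell by 1.24 ± 0.06. The further probe set of SH3BGRL gave -0.31, and those of ELOVL5, all much dimmer, gave 0.04, -0.25 and -0.13, none of them called.

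LGR5, the R-spondin receptor that amplifies Wnt signals, fell by 1.19 ± 0.08 from 6.77, 6.65 and 6.5 to 5.45, 5.48 and 5.43 (log2 intensity), although it lies among the dimmest 40% of genes. SLC7A11, the cystine importer that feeds glutathione synthesis, read 9.67, 9.59 and 9.62 in the controls and 8.41, 8.58 and 8.33 with s18076, and fell by 1.19 ± 0.08. ABCC1, the multidrug resistance exporter MRP1, fell by 1.13 ± 0.06, and its other probe set fell by 1.23. REEP4, which keeps endoplasmic reticulum away from mitotic chromosomes, fell by 1.16 ± 0.07, and PXDN, the extracellular matrix peroxidase peroxidasin, fell by 1.13 ± 0.06, with its other probe set at -1.06. NEFM, the medium neurofilament chain, read 11.29, 11.37 and 11.48 and 10.23, 10.28 and 10.21, and fell by 1.14 ± 0.06, whereas its other probe set gave -0.05 and was not called. CTDSPL, a small C-terminal domain phosphatase that works with the repressor REST, fell by 1.13 ± 0.07. CCDC91, a partner of the GGA sorting adaptors, fell by 1.11 ± 0.08. NSA2, a factor of large ribosomal subunit assembly, was the brightest of these, at 13.19, 13.15 and 13.26 in the controls and 12.18, 12.07 and 12.08 with s18076, and fell by 1.09 ± 0.05. The RNA-binding protein gene MATR3 fell by 1.08 ± 0.09. Of the 14 largest falls 10 had a further probe set, called lower for 5.

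**Figure D2:**
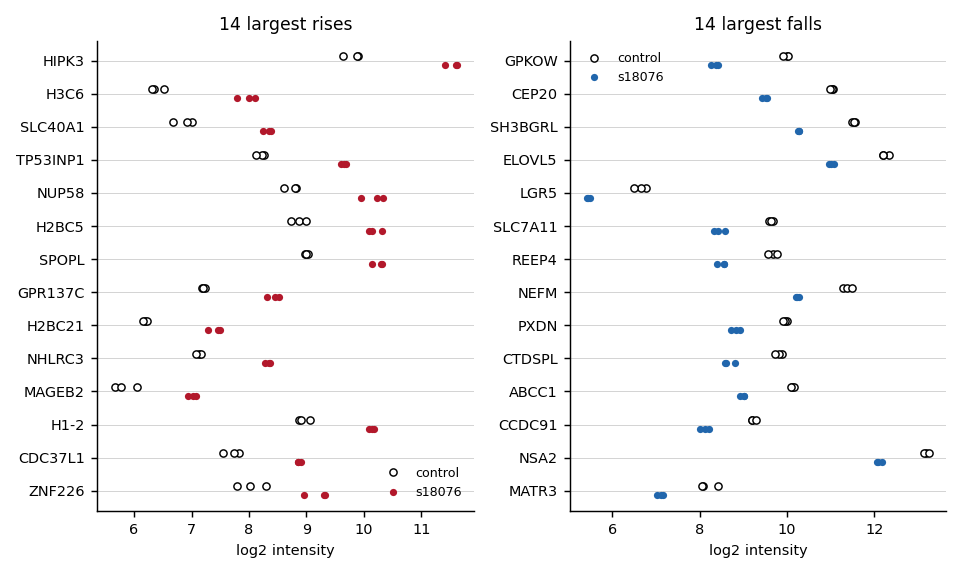
Log2 intensity (x axis) of every control array (open circles) and s18076 array (filled circles) for the 14 largest rises, left, and the 14 largest falls, right. In each of these 28 genes the 3 s18076 arrays lie on 1 side of the 3 control arrays without overlap.

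The direct contrasts between siRNAs, which use no control array, showed where s18076 stood apart from both other MED26 siRNAs. A gene was counted as set apart where it was called against control, against s18074 and against s18075 in the same direction. All 3 contrasts share the s18076 arrays, so they are not independent. Against s18074, 2.84% of all genes were called higher and 2.27% lower with s18076, and against s18075 6.57% and 4.44%. Set apart in this way were 182 genes higher (0.92%) and 269 lower (1.36%). Of the 24 genes with a log2 fall of 1 or more 20 were set apart, and of the 25 that rose by as much 9 were. Among changes of at least 0.5 the counts were 120 of 286 falls and 69 of 375 rises, and 107 of these falls and 185 of these rises were called against neither other siRNA. Without s18076 replicate 3 the genes set apart upwards numbered 92, and without s18076 replicate 2 112.

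CEP20 gave the clearest case: its level was 10.97, 11.03 and 11.06 with s18074 and 10.97, 10.99 and 11.02 with s18075 (log2 intensity), like the controls, so that it was lower with s18076 than with either by a log2 difference of -1.52 ± 0.05 (limma adjusted p = 7.79e-09) and -1.49 ± 0.05 (adjusted p = 4.79e-09). GPKOW read 9.90, 9.80 and 9.85 and 10.15, 10.08 and 10.14, and its level with s18076 differed from these by -1.5 ± 0.06 and -1.77 ± 0.06. For SH3BGRL the differences were -1.47 ± 0.05 and -1.41 ± 0.05, for ELOVL5 -0.97 ± 0.06 and -1.12 ± 0.06, for REEP4 -0.90 ± 0.07 and -1.10 ± 0.07, and for LGR5 -0.94 ± 0.08 and -0.86 ± 0.08. Upwards, HIPK3 formed a series of levels, with 10.40, 10.48 and 10.42 for s18074 and 10.97, 10.98 and 10.99 for s18075, both between the controls and s18076. HIPK3 was higher with s18076 than with these by 1.11 ± 0.08 and 0.57 ± 0.08. SLC40A1 (0.45 ± 0.08 and 0.64 ± 0.08) and NUP58 (0.76 ± 0.10 and 0.66 ± 0.10) were likewise highest with s18076. MAGEB2 differed by 0.87 ± 0.14 and 1.08 ± 0.14, and ENPP5, a membrane protein of the ectonucleotide phosphodiesterase family that is also among the dimmest 40%, by 0.52 ± 0.11 and 1.35 ± 0.11. TMEM245 rose by 1.11 ± 0.06 against control and stood 0.25 ± 0.06 and 0.46 ± 0.06 above the other siRNAs, and of its 4 other probe sets 2 rose as much (1.12 and 1.18), 1 gave 0.58 and the dimmest -0.01.

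**Figure D3:**
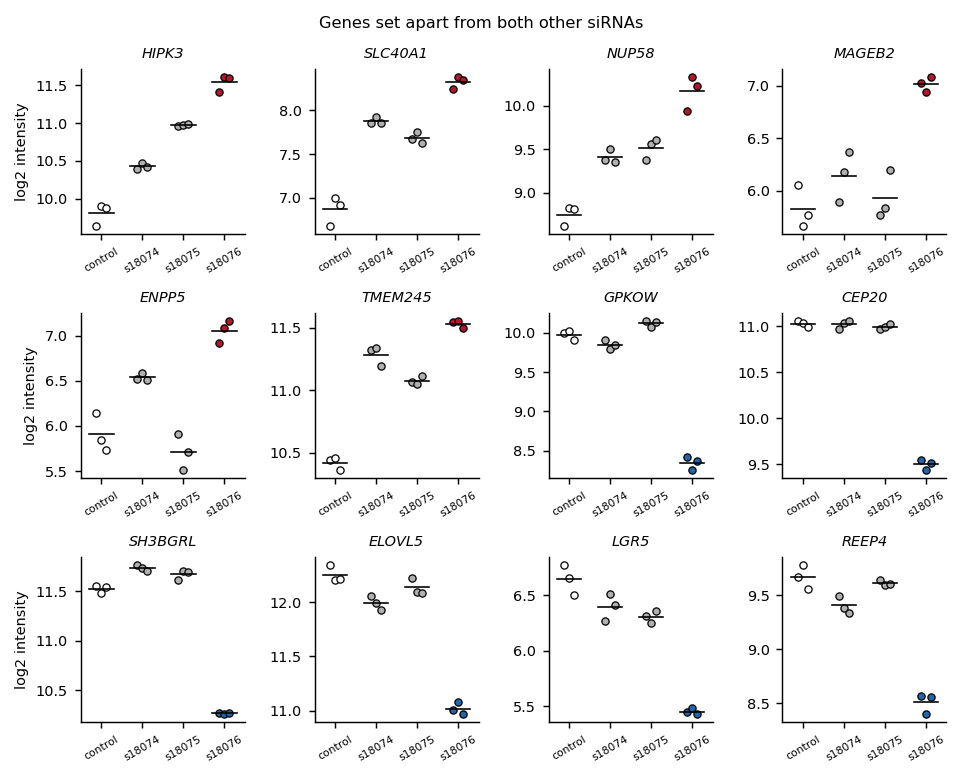
Log2 intensity (y axis) of each array, with the group mean as a line, in the control (open), s18074 and s18075 (grey) and s18076 (coloured) groups, for the 6 largest rises and the 6 largest falls among genes set apart from both other siRNAs. In CEP20 and GPKOW the other siRNAs lie near the control level, and in HIPK3 and TMEM245 they lie between control and s18076.

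Replication-dependent histone genes held 4 of the 14 largest rises. Their products package newly made DNA, and their mRNAs end in a stem-loop in place of a poly(A) tail. The array values do not tell transcripts with a stem-loop end from any with a poly(A) tail. Which form changed was not tested. Of 62 listed genes 40 were measured, and of these 15 rose (37.5%, against 10.3% of all genes), 1 fell and 24 did not pass, with a median log2 change of 0.13. Of the 40, 25 were among the dimmest 40% of genes, where calls were rare, so a gene that did not pass may still have changed. The H2B class held 9 of the 15. H2BC21 went from 6.20, 6.22 and 6.15 in the control arrays (log2 intensity) to 7.46, 7.30 and 7.50 with s18076. H2BC9 went from 7.68, 7.66 and 7.69 to 8.64, 8.61 and 8.64, a rise of 0.95 ± 0.05, with replicates that lay close together in both groups. H2BC12, the brightest of the class, went from 12.06, 12.11 and 12.22 to 12.88, 12.95 and 12.95, a rise of 0.80 ± 0.06 (limma adjusted p = 2.27e-06). H2BC6 rose by 0.81 ± 0.07, the H2A genes H2AC17 and H2AC6 by 0.65 ± 0.09 and 0.47 ± 0.06, and H2BC3 by 0.32 ± 0.08. Members that were dim gave less firm calls: H2BC4 (0.88 ± 0.24), H2BC11 (0.59 ± 0.16), H2BC17 (0.50 ± 0.12), H3C2 (0.34 ± 0.10) and H4C8 (0.29 ± 0.08) rested on single arrays, and H2BC4 and H2BC11 had overlapping groups. The call of H2BC4 was lost without control replicate 1, s18076 replicate 2 or s18076 replicate 3 (limma adjusted p 0.0806 to 0.0934), and that of H2BC11 without control replicate 1, control replicate 3, s18076 replicate 1 or s18076 replicate 2 (limma adjusted p 0.0535 to 0.0769). H2BC17 lost its call without control replicate 2 or s18076 replicate 3 (limma adjusted p 0.0553 to 0.0562), H3C2 without control replicate 1, control replicate 2, s18076 replicate 2 or s18076 replicate 3 (limma adjusted p 0.0745 to 0.106), and H4C8 without control replicate 1, control replicate 2, s18076 replicate 1, s18076 replicate 2 or s18076 replicate 3 (limma adjusted p 0.0627 to 0.114). H3C7, also dim, fell by 0.44 ± 0.10. Of the 15 genes that rose 6 were read from a probe set whose suffix (_x or _s) warns of probes that may bind related transcripts, among them H2BC5, H2BC6, H2BC9 and H2BC21, so their values may not be separate. The other probe set of H3C6 gave 0.20 and was not called, and that of H2BC5 gave 0.73 and was.

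No histone gene was set apart from both other siRNAs, and in the direct contrasts 0 of the 40 were higher with s18076 than with either. H2AC6 was lower than with s18074 and s18075, at log2 differences of -0.48 ± 0.06 and -0.63 ± 0.06. H2BC5 and H2BC21 were lower than with s18075, at -0.29 ± 0.08 and -0.25 ± 0.07 (limma adjusted p = 0.0411 and 0.0276). Among the 9 measured histone variants that are made outside S phase, H2AX rose by 0.28 ± 0.08 and H2AZ2 by 0.27 ± 0.06. Another H2AZ2 probe set, about as bright (control mean 12.23, against 12.04), gave -0.12, and dimmer ones gave 0.12 and -0.13, none called. The rise of H2AZ2 thus rests on a single probe set. H2AX lost its call without control replicate 2, control replicate 3, s18076 replicate 1 or s18076 replicate 3 (limma adjusted p 0.0513 to 0.107). Of 15 genes for histone mRNA processing 3 rose and 2 fell. NPAT, the coactivator of histone genes in S phase, rose by 0.36 ± 0.06, and the exonuclease gene ERI1, which trims histone mRNA ends, by 0.45 ± 0.06. The scaffold gene SYMPK fell by 0.33 ± 0.07 and LSM10, part of the U7 particle, by 0.25 ± 0.05, and the stem-loop binding protein SLBP gave 0.06 ± 0.10, not called.

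**Figure D4:**
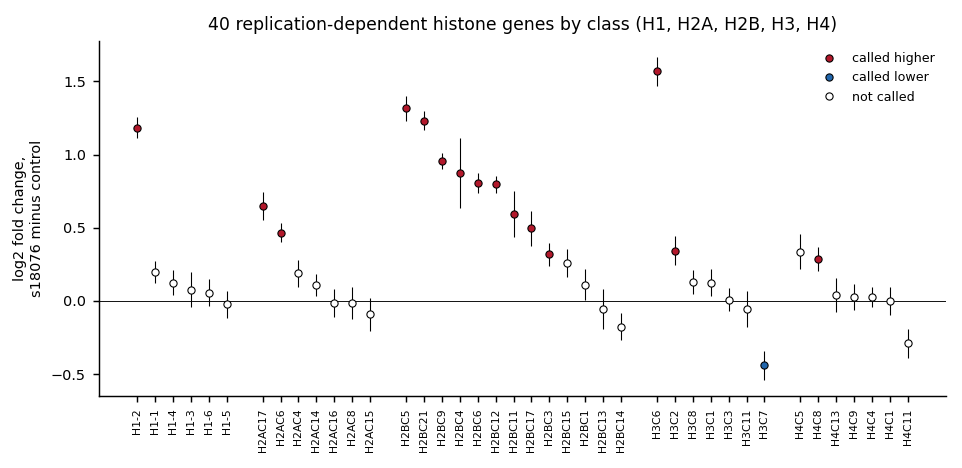
Log2 fold change (s18076 minus control, y axis) with its SE for the 40 measured replication-dependent histone genes, grouped by class and ordered by size. The H2B class holds 9 of the 15 genes called higher (red), and H3C6 (1.57) is highest.

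Promoters are shown for histone genes because 15 of the 40 measured rose and H2B genes carry a well-known element, the octamer to which OCT1 binds. The sequences are the 150 bases before the start site from RefSeq on build GRCh38.p14, read 5′ to 3′ on the gene's strand. In the H2B genes capitals mark the octamer ATTTGCAT, in H1-2 the H1 box AAACACA and in H3C6 the CCAAT box (CCAAT or, on the other strand, ATTGG). H2BC21 (chr1:149886683-149886832, minus strand), H2BC9 (chr6:26251464-26251613, plus strand) and H2BC12 (chr6:27146859-27147008, minus strand) rose and have the octamer 46, 49 and 46 bases before the start. H2BC5 (chr6:26157971-26158120, plus strand) rose and has no exact match, and H2BC14 (chr6:27814872-27815021, plus strand) has a match 48 bases before the start and was not called (-0.18 ± 0.09). Of the other H2B genes that rose, H2BC11 has the octamer 47 bases before the start, H2BC6, H2BC3 and H2BC4 have it farther off, at 108, 120 and 123 bases, and H2BC17 has it at 149 bases on the other strand. H2BC1, not called, has it at 104 bases. H1-2 lies at chr6:26056471-26056620, minus strand and H3C6 at chr6:26224028-26224177, plus strand.
H2BC21: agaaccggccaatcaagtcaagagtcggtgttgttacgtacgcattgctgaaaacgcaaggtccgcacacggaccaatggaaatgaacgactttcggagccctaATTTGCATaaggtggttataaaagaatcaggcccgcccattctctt
H2BC9: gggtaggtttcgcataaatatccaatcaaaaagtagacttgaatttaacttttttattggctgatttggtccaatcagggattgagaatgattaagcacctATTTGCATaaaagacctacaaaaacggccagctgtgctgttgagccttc
H2BC12: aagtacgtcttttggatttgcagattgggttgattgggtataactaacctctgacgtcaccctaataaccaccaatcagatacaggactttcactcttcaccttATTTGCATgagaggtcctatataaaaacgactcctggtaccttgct
H2BC5: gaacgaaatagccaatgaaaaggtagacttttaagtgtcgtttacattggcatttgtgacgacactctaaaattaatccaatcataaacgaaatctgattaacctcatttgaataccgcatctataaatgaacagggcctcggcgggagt
H2BC14: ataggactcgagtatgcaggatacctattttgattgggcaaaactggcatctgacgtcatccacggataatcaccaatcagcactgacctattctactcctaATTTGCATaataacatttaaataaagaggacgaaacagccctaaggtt
H1-2: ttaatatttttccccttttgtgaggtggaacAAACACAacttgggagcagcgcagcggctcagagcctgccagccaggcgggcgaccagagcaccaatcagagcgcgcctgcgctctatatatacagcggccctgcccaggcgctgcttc
H3C6: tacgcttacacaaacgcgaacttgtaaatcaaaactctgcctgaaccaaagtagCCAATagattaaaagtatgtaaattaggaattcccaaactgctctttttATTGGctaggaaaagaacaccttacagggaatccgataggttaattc

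On either strand and at any place in this window the octamer was found in 8 of the 9 H2B genes that rose and in 2 of the 4 that were not called. Over all replication-dependent histone genes with a promoter in the table, 10 of the 15 that rose held it, 3 of the 22 that were not called and 0 of the 1 that fell. No H1, H3 or H4 gene held it, called or not, and most genes that rose were H2B genes. In this pooled count the octamer and the histone class therefore cannot be told apart. Within the H2A class 2 of the 2 that rose held it and 1 of the 5 that were not called. Whether H2A and H2B genes share a promoter stretch was not checked, so these matches may not all be separate. Among the 27305 genes with a promoter, 0.985% held the octamer, 24.4% CCAAT, 7.05% the TATA box letters TATAAA and 2.77% AAACACA. Among histone genes, CCAAT was present in 14 of the 15 that rose and in 19 of the 22 that were not called. TATAAA was present in 8 of the 15 and 11 of the 22, and AAACACA in 1 of the 15 and 4 of the 22. Where a gene had several entries the first was used, and a match describes letters in this window, not a bound site.

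Some genes of the p53 pathway rose next to the histones. HEK293T cells carry large T antigen, which binds p53, so the list is named for the genes and not for p53 activity. Of 32 measured targets 13 rose (40.6%, against 10.3% of all genes) and 2 fell, with a median of 0.16. CDKN1A, the inhibitor of cyclin-dependent kinases p21, read 8.99, 9.11 and 8.90 in the control arrays (log2 intensity) and 9.77, 9.71 and 9.79 with s18076, and rose by 0.76 ± 0.06 (limma adjusted p = 8.15e-06). The death receptor gene TNFRSF10B rose by 0.59 ± 0.05, with 10.09, 9.96 and 10.00 against 10.61, 10.58 and 10.62, and 2 of its 3 other probe sets rose as much (0.58 and 0.59). ZMAT3, an RNA-binding regulator of splicing, rose by 1.11 ± 0.20 with loose replicates, at 8.14, 8.73 and 8.49 and 9.34, 9.75 and 9.60. The groups did not overlap in these 3 genes. CCNG2, an atypical cyclin of arrested cells, rose by 0.42 ± 0.06 and was also higher than with s18074 and s18075, by 0.43 ± 0.06 and 0.38 ± 0.06. In the direct contrasts 4 of the 32 targets were higher and 2 lower with s18076 than with s18074. Against s18075, 5 were higher and 7 lower. Over all genes these shares were 2.84% and 2.27% against s18074, and 6.57% and 4.44% against s18075. POLH, the translesion polymerase, fell by 0.45 ± 0.08, and TP53I11, named after its value was seen, by 0.32 ± 0.07. Other classical targets were not called: MDM2 gave -0.18 ± 0.08, BAX -0.05 ± 0.11, GDF15 0.05 ± 0.11 and SESN1 0.03 ± 0.07. In the BCL2 family, 4 of 19 rose (21.1%) and 3 fell (15.8%). The mitophagy receptor BNIP3L gave 0.51 ± 0.09, BIK 0.41 ± 0.08, BAD -0.48 ± 0.06 and BCL2L13 -0.48 ± 0.06.

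Immediate-early genes, which growth factors and stress switch on within minutes, rose in 16 of 40 measured (40%, against 10.3% of all genes). In this list 1 gene was lower, and the median was 0.18. The phosphatase gene DUSP5, which acts on ERK, read 6.68, 6.62 and 6.41 in the control arrays (log2 intensity) and 7.09, 7.15 and 7.54 with s18076, and rose by 0.69 ± 0.11. The nuclear receptor NR4A2 rose by 0.64 ± 0.12 and both of its other probe sets by 0.62 and 0.45. SPRY2, an inhibitor of receptor tyrosine kinase signals, rose by 0.48 ± 0.06 and stood 0.34 ± 0.06 and 0.43 ± 0.06 above s18074 and s18075. EGR1 rose by 0.47 ± 0.07 and IER3 by 0.44 ± 0.05. The pseudokinase gene TRIB1 fell by 0.48 ± 0.05, and FOS (-0.12 ± 0.11), JUN (-0.18 ± 0.08) and DUSP1 (-0.18 ± 0.07) were not called. The rises numbered 10 without s18076 replicate 3.

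Some genes that serve the nucleolus and translation fell. Small nucleolar RNAs guide the modification of ribosomal RNA and are cut from the introns of host genes, of which 7 of 18 listed were measured. Of these 6 fell (85.7%, against 8.62% of all genes), with a median of -0.53, and SNHG10 gave 0.13 ± 0.07, not called. DANCR read 12.09, 11.99 and 12.03 in the control arrays (log2 intensity) and 11.54, 11.42 and 11.45 with s18076, and fell by 0.57 ± 0.06 (limma adjusted p = 4.75e-05). ZFAS1 read 12.41, 12.48 and 12.49 and 11.91, 12.05 and 12.02, and fell by 0.47 ± 0.06, and its 3 other probe sets fell by 0.56, 0.52 and 0.63. SNHG4 fell by 0.84 ± 0.10, TAF1D, which also encodes a subunit of the polymerase I factor SL1, by 0.59 ± 0.07, EPB41L4A-AS1 by 0.53 ± 0.05 and GAS5 by 0.41 ± 0.06. SNHG4 and GAS5 are among the dimmest 40% of genes. In none of the 6 did an s18076 array reach the lowest control array.

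Of 54 nucleolar ribosome biogenesis genes 15 fell (27.8%) and 1 rose, with a median of -0.12, and 43 of the 54 changes were below 0. The falls were small. NIP7, a factor of large subunit assembly, fell by 0.42 ± 0.06 and its other probe set by 0.40, NOL6 by 0.33 ± 0.07, NOP16 by 0.32 ± 0.06, NOP14 by 0.29 ± 0.06 and the helicase gene DDX21 by 0.29 ± 0.05. DDX21 is a very bright gene, with 13.42, 13.51 and 13.42 in the controls and 13.18, 13.16 and 13.15 with s18076 (log2 intensity). RRN3, the initiation factor of RNA polymerase I, rose by 0.31 ± 0.06. Nucleolin, NCL (-0.02 ± 0.05), and nucleophosmin, NPM1 (-0.10 ± 0.05), were not called. Of 46 translation factors 11 fell (23.9%) and 0 rose, with a median of -0.06, and the falls numbered 7 without s18076 replicate 3. EIF5A2 fell by 0.46 ± 0.05, the cap-binding inhibitor EIF4EBP1 by 0.41 ± 0.08, the kinase gene EEF2K by 0.38 ± 0.06 and EIF2S3, a subunit of the factor that brings initiator tRNA, by 0.26 ± 0.06. EIF5A2 and EIF2S3 were lower than with both other siRNAs. Of 53 cytosolic ribosomal protein genes 4 fell (7.55%) and 0 rose. That share was near the 8.62% of all genes and below the 9.41% to 14.7% of the 3 brighter groups, and 1 of the 53 was among the dimmest 40%. Of the 53 changes 43 were below 0 (median -0.04). Those 4 falls numbered 2 without control replicate 1, 1 without control replicate 2 or s18076 replicate 3 and 0 without control replicate 3 or s18076 replicate 1.

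MYC, which drives ribosome production and growth genes, read 10.81, 10.53 and 10.20 in the control arrays (log2 intensity) and 9.79, 9.66 and 9.54 with s18076, and fell by 0.86 ± 0.13 (limma adjusted p = 0.000612), with scattered controls that all lay above the s18076 arrays. Its partner MAX fell by 0.39 ± 0.05 and MXD1, which competes with MYC for MAX, rose by 0.43 ± 0.07. MYCN (-0.05 ± 0.14), MNT (-0.12 ± 0.08) and MXI1 (0.07 ± 0.06) were not called.

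Several genes of amino acid supply fell. ATF4 is the transcription factor that raises amino acid import and synthesis when amino acids are short. Of 36 measured genes of its response 13 fell (36.1%) and 4 rose (11.1%), with a median of -0.12. Over all genes 8.62% fell and 10.3% rose. Besides SLC7A11, asparagine synthetase (ASNS) read 11.84, 11.62 and 11.55 in the control arrays (log2 intensity) and 11.07, 10.88 and 10.97 with s18076, and fell by 0.70 ± 0.08 (limma adjusted p = 7.81e-05), while a dimmer probe set gave 0.04. The cationic amino acid transporter gene SLC7A1 read 12.36, 12.38 and 12.37 and 11.94, 11.92 and 11.92, and fell by 0.44 ± 0.05. The leucine importer gene SLC7A5 fell by 0.43 ± 0.07 and PSPH, the last enzyme of serine synthesis, by 0.41 ± 0.08. The lipoprotein receptor gene VLDLR rose by 0.86 ± 0.09, from 6.30, 6.27 and 6.24 to 7.23, 7.17 and 6.99. CHAC1 (-0.06 ± 0.09), TRIB3 (-0.04 ± 0.05) and PHGDH (-0.11 ± 0.07) were not called.

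Of 29 genes of the endoplasmic reticulum 7 fell (24.1%) and 3 rose (median -0.09). None of the 29 was among the dimmest 40% of genes. Over all genes 10.3% rose and 8.62% fell, and in the 3 brighter groups 13.5% to 19.2% rose and 9.41% to 14.7% fell. ERO1A, the oxidase that forms disulfide bonds, read 11.50, 11.41 and 11.34 in the control arrays (log2 intensity) and 10.50, 10.39 and 10.32 with s18076, and fell by 1.01 ± 0.07. It was also lower than with s18074 and s18075, at log2 differences of -1.10 ± 0.07 and -0.85 ± 0.07. Its further probe sets gave -0.20, not called, and -1.13, called. ERN1, the sensor IRE1, fell by 0.36 ± 0.07 and the cochaperone gene DNAJB9 rose by 0.66 ± 0.06. The main chaperones HSPA5 (-0.12 ± 0.07) and HSP90B1 (-0.12 ± 0.15) were not called. The falls numbered 4 without control replicate 2 or s18076 replicate 3 and 3 without s18076 replicate 2. Of 28 targets of the antioxidant factor NRF2 3 rose (10.7%) and 4 fell (14.3%). These rises numbered 1 without control replicate 1 or s18076 replicate 1, and these falls 2 without control replicate 2. HMOX1 (-0.01 ± 0.06) and NQO1 (-0.02 ± 0.08) were not called. Of 31 heat-shock genes 5 rose (16.1%) and 1 fell (3.23%), with HSPA4L at 0.35 ± 0.07 and HSPB1 at 0.27 ± 0.06.

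Iron and lipid genes moved in both directions. Against the rise of the iron exporter SLC40A1, the importers SLC39A14 and TFRC fell by 0.75 ± 0.05 and 0.31 ± 0.06, and FTL, the light chain of the iron store ferritin, rose by 0.22 ± 0.05. The importer gene SLC11A2 went the other way, with a rise of 0.22, and its other called probe sets gave 0.28 and -0.41. STEAP3 rose by 0.27 and its other probe set by 0.47. SLC39A14 read 11.19, 11.23 and 11.14 in the control arrays (log2 intensity) and 10.48, 10.38 and 10.43 with s18076 and was lower than with both other siRNAs. Of 19 iron genes 4 rose (21.1%) and 3 fell (15.8%), and the rises numbered 2 without control replicate 2 or s18076 replicate 1. INSIG1, which holds the sterol sensor in the endoplasmic reticulum, fell by 0.77 ± 0.09, from 11.63, 11.40 and 11.27 to 10.67, 10.73 and 10.59, and its other probe sets fell by 0.72 and 0.57. Its relative INSIG2 rose by 0.49 ± 0.09, the sterol carrier gene STARD4 by 0.93 ± 0.09 and the synthesis enzyme gene MSMO1 by 0.42 ± 0.06, while the epoxidase gene SQLE fell by 0.31 ± 0.06 and HMGCS1 (-0.19 ± 0.07) was not called. INSIG1 was higher with s18076 than with s18075 by 0.77 ± 0.09. Among fatty acid enzymes ELOVL7 rose by 0.94 ± 0.06, from 8.92, 8.84 and 8.97 to 9.85, 9.87 and 9.83, and SCD5 by 0.51 ± 0.08, opposite to ELOVL5, and both were set apart from the other siRNAs. The counts, 3 higher and 2 lower of 24 cholesterol genes and 2 and 3 of 22 fatty acid genes, were close to the background, and the 3 fatty acid falls numbered 1 without control replicate 1, s18076 replicate 2 or s18076 replicate 3.

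Of 37 hypoxia and glycolysis genes 8 rose (21.6%) and 4 fell (10.8%), and none of the 37 was among the dimmest 40% of genes. Over all genes 10.3% rose and 8.62% fell, and in the 3 brighter groups 13.5% to 19.2% rose and 9.41% to 14.7% fell. HIF1A, the oxygen-regulated transcription factor, read 12.35, 12.20 and 12.22 in the control arrays (log2 intensity) and 12.80, 12.95 and 12.93 with s18076, and rose by 0.64 ± 0.06. The glucose transporter gene SLC2A3 rose by 0.72 ± 0.08 and 2 further probe sets by 0.45 and 0.42, while VEGFA, the vascular growth factor, and NDRG1 fell by 0.49 ± 0.06 and 0.61 ± 0.08. SLC2A1 (-0.08 ± 0.07), LDHA (-0.16 ± 0.07) and PGK1 (0.03 ± 0.05) were not called. Respiratory chain subunits (7 of 61 higher, 2 lower) and proteasome subunits (3 of 34 higher, 3 lower) were near the background.

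In the transcription machinery, 7 of 30 other Mediator subunits rose (23.3%) and 4 fell (13.3%). Only 2 of the 30 were among the dimmest 40% of genes, and in the 3 brighter groups of genes 13.5% to 19.2% rose and 9.41% to 14.7% fell. MED28, of the head module, read 11.62, 11.67 and 11.84 in the control arrays (log2 intensity) and 12.34, 12.38 and 12.40 with s18076, and rose by 0.67 ± 0.06, and 4 of its further probe sets were called higher too. MED16 and MED15, of the tail, rose by 0.45 ± 0.08 and 0.38 ± 0.08. MED11 fell by 0.52 ± 0.06, from 9.79, 9.81 and 10.01 to 9.38, 9.31 and 9.38, the scaffold gene MED14 by 0.34 ± 0.05 and MED12, of the kinase module, by 0.33 ± 0.06. MED14 was set apart from both other siRNAs, whereas MED11 was higher with s18076 than with s18074 by 0.26 ± 0.06. Neither MED1 (0.10 ± 0.12) nor the kinase CDK8 (-0.14 ± 0.06) was called. The rises numbered 4 without s18076 replicate 1.

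Of 44 polymerase and initiation genes 9 rose (20.5%) and 3 fell (6.82%). None of the 44 was among the dimmest 40% of genes, and in the 3 brighter groups of genes 13.5% to 19.2% rose. POLR2A, the catalytic subunit of RNA polymerase II, read 11.35, 11.34 and 11.41 in the control arrays (log2 intensity) and 12.16, 12.04 and 12.02 with s18076, and rose by 0.71 ± 0.06 (limma adjusted p = 6.02e-06), less than with s18074 and s18075, from which it differed by -0.23 ± 0.06 and -0.20 ± 0.06. TAF8 rose by 0.53 ± 0.07 and GTF2B by 0.42 ± 0.05. GTF2E2, a subunit of TFIIE, fell by 0.79 ± 0.06, from 10.05, 10.12 and 10.19 to 9.36, 9.26 and 9.37, and was set apart from the other siRNAs at -0.81 ± 0.06 and -0.84 ± 0.06. The rises numbered 5 without s18076 replicate 2 or s18076 replicate 3. In the super elongation complex and the 7SK particle, 4 of 19 rose (21.1%) and 1 fell (5.26%), and none of the 19 was among the dimmest 40% of genes. HEXIM1, which holds P-TEFb inactive, rose by 0.82 ± 0.08, from 10.07, 10.34 and 10.29 to 10.95, 11.08 and 11.13. The scaffold AFF4 rose by 0.33 ± 0.06 and EAF1 by 0.28 ± 0.05, while CDK9 (0.09 ± 0.23) and ELL (0.15 ± 0.07) were not called. Another HEXIM1 probe set rose by 0.96 and a dim one gave -0.17. Of 23 other elongation factors 5 rose (21.7%) and 2 fell (8.70%), with RTF1 at 0.31 ± 0.06, NELFB at 0.32 ± 0.05 and TCEA2 at -0.45 ± 0.08. Of 21 Integrator and snRNA transcription genes 3 rose (14.3%) and 3 fell (14.3%). SNAPC1 gave 0.65 ± 0.13, INTS6 0.35 ± 0.07 and COIL, the marker of Cajal bodies, -0.34 ± 0.05.

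Among the lists of genes that act on mRNA after transcription, the microRNA machinery held the largest share of rises. In the microRNA machinery 6 of 15 genes rose (40%) and 1 fell (median 0.16), and the 6 were all Argonaute genes or their GW182 partners, which silence target mRNAs. TNRC6A read 10.04, 10.15 and 10.13 in the control arrays (log2 intensity) and 10.96, 10.90 and 10.92 with s18076, and rose by 0.82 ± 0.05 (limma adjusted p = 1.06e-06). Of its further probe sets 2 rose by 0.88 and 0.87. AGO4 rose by 0.53 ± 0.07, TNRC6B by 0.41 ± 0.08, TNRC6C by 0.40 ± 0.09 and AGO1 by 0.30 ± 0.05. AGO3 rose by 0.55 ± 0.06 on its brightest probe set, but another fell by 0.44. The gene that fell was XPO5, which exports microRNA precursors from the nucleus, by 0.23 ± 0.05; it was named after its value was seen. The processing enzymes DICER1 (-0.08 ± 0.07) and DROSHA (-0.04 ± 0.06) and the slicer AGO2 (0.18 ± 0.08) were not called. None of the 15 was set apart from both other siRNAs. Among 37 mRNA decay genes 7 rose (18.9%) and 4 fell (10.8%). LSM14A rose by 0.49 ± 0.06 and the antiproliferative gene BTG3 by 0.93 ± 0.05, with a further BTG3 probe set at 0.94 and dim ones at -0.10 and 0.17. The nonsense-mediated decay factor UPF2 fell by 0.62 ± 0.06 and the deadenylase PAN2 by 0.53 ± 0.07. The rises numbered 4 without control replicate 2 or s18076 replicate 2, and the falls 2 without control replicate 3, s18076 replicate 2 or s18076 replicate 3. Among 56 splicing genes 8 rose (14.3%) and 6 fell (10.7%), with the kinases CLK1 and SRPK2 at 0.49 ± 0.05 and 0.48 ± 0.06 and SNRPA at -0.43 ± 0.08. Among 29 nucleoporins 6 rose (20.7%) and 2 fell (6.90%), with NUP155 at 0.67 ± 0.05 and NDC1 at 0.40 ± 0.05 beside NUP58. NUP54, the partner of NUP58 in the channel, gave -0.65 ± 0.07 and was set apart from both other siRNAs. None of the genes in the decay, splicing and nucleoporin lists was among the dimmest 40%. Over all genes 10.3% rose and 8.62% fell, and in the 3 brighter groups 13.5% to 19.2% rose and 9.41% to 14.7% fell. The decay and splicing shares lay within those of the brighter groups.

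Autophagy and lysosome genes rose in 14 of 45 (31.1%, against 10.3% of all genes), with 2 lower and a median of 0.15. None of the 45 was among the dimmest 40% of genes, and in the 3 brighter groups 13.5% to 19.2% rose. ULK1, the kinase that starts autophagy, read 8.76, 8.68 and 8.49 in the control arrays (log2 intensity) and 9.22, 9.15 and 9.03 with s18076, and rose by 0.49 ± 0.09. The lipid transfer gene ATG2A rose by 0.53 ± 0.07 and LAMP2 by 0.37 ± 0.07. LAMP1, the other main lysosomal membrane protein, fell by 0.46 ± 0.07, from 12.04, 11.97 and 11.94 to 11.64, 11.46 and 11.46. ATG10, named after its value was seen, fell by 0.36 ± 0.10, a call lost without control replicate 2, control replicate 3, s18076 replicate 1 or s18076 replicate 3 (limma adjusted p 0.0563 to 0.0856). BECN1 (-0.03 ± 0.06) and TFEB (0.16 ± 0.07) were not called. The rises numbered 9 without s18076 replicate 1. In the PI3K and MTOR list, 8 of 38 rose (21.1%) and 6 fell (15.8%): the RAG GTPases RRAGD and RRAGC, which call MTOR to lysosomes, rose by 0.58 ± 0.06 and 0.42 ± 0.06, TSC1 by 0.48 ± 0.07, PDPK1 by 0.49 ± 0.06 and the S6 kinase gene RPS6KB1 by 0.44 ± 0.05, with MTOR itself at 0.02 ± 0.06, not called. The 6 falls of this list numbered 3 without control replicate 1 or s18076 replicate 2 and 2 without control replicate 2. None of its 38 genes was among the dimmest 40%, and in the 3 brighter groups of genes 13.5% to 19.2% rose and 9.41% to 14.7% fell.

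Among receptor tyrosine kinase, RAS and MAPK genes 13 of 43 rose (30.2%) and 7 fell (16.3%). Over all genes 10.3% rose and 8.62% fell, and in the 3 brighter groups 13.5% to 19.2% rose and 9.41% to 14.7% fell. IGF1R rose by 0.54 ± 0.07 and stood 1.07 ± 0.07 above s18074, but another of its probe sets fell by 0.29. RPS6KA3, which encodes the kinase RSK2, rose by 0.53 ± 0.05, where another probe set fell by 0.51. The exchange factor gene SOS2 and the inhibitor SPRED2 rose by 0.52 ± 0.08 and 0.60 ± 0.13. DOK3, an adaptor that damps such signals, fell by 0.85 ± 0.07, from 8.14, 8.20 and 8.05 to 7.30, 7.31 and 7.24 (log2 intensity). The falls numbered 3 without control replicate 2, s18076 replicate 2 or s18076 replicate 3 and 4 without control replicate 3. Of 29 Hippo pathway genes 8 rose (27.6%) and 2 fell. The kinase gene LATS2 rose by 0.47 ± 0.07, TEAD1 by 0.45 ± 0.05 and the target CCN1 by 0.31 ± 0.06, whereas AMOT and the coactivator gene WWTR1 fell by 0.41 ± 0.06 and 0.31 ± 0.07 and YAP1 (-0.04 ± 0.07) was not called. These 8 rises numbered 5 without control replicate 1, control replicate 2 or s18076 replicate 2 and 4 without control replicate 3.

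Ligands and receptors of the developmental pathways moved singly. BMP2, a secreted bone morphogenetic protein, read 8.38, 8.55 and 8.48 in the control arrays (log2 intensity) and 7.4, 7.50 and 7.53 with s18076, and fell by 0.99 ± 0.09, and its other probe set fell by 1.08. The fall was smaller than with the other siRNAs, since BMP2 was higher with s18076 by 0.45 ± 0.09 and 0.55 ± 0.09. The receptor ACVR2B fell by 0.58 ± 0.07, the target ID3 by 0.39 ± 0.06 and the antagonist NOG by 0.56 ± 0.10, and the pseudoreceptor BAMBI rose by 0.62 ± 0.08. Of 41 genes of this pathway 6 rose (14.6%) and 5 fell (12.2%). In the Wnt pathway (6 of 43 higher, 4 lower), the ligands WNT5A and WNT5B rose by 0.35 ± 0.06 and 0.49 ± 0.11, and ZNRF3, the ubiquitin ligase that clears Wnt receptors and is itself held off by R-spondin and LGR5, fell by 0.46 ± 0.08. In the Notch pathway (1 of 33 higher, 3 lower), the target HES1 rose by 0.53 ± 0.07 while HEY1 fell by 0.22 ± 0.05. Interferon-stimulated genes rose in 10 of 41 (24.4%, against 10.3% of all genes), with 1 lower and a median of 0.02. IFITM1 rose by 0.69 ± 0.06, from 7.61, 7.56 and 7.66 to 8.25, 8.26 and 8.4, HERC5 by 0.50 ± 0.06 and IFI6 by 0.45 ± 0.06, but IFIT1 (0.08 ± 0.07), ISG15 (0.02 ± 0.07) and MX1 (-0.01 ± 0.19) were not called. Of 36 genes of NF-kB signalling and cytokines 2 rose and 2 fell, below the background.

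Cell cycle genes showed a few clear changes in lists that otherwise sat near the background. Of 66 genes for G1/S and DNA replication 9 rose (13.6%) and 4 fell (6.06%). CCND2, a G1 cyclin, read 10.98, 10.97 and 10.90 in the control arrays (log2 intensity) and 11.69, 11.66 and 11.69 with s18076, and rose by 0.73 ± 0.05 (limma adjusted p = 1.06e-06), above s18074 and s18075 by 0.33 ± 0.05 and 0.47 ± 0.05. The inhibitor p27, CDKN1B, rose by 0.67 ± 0.08 and CCNE2 by 0.49 ± 0.07, and the polymerase subunits POLD1 and POLE2 fell by 0.34 ± 0.07 and 0.34 ± 0.08. The 4 falls numbered 2 without s18076 replicate 3. PCNA (0.07 ± 0.06) and MCM2 (0.13 ± 0.06) were not called. Of 59 genes for mitosis and cytokinesis 10 rose (16.9%) and 7 fell (11.9%). The kinase gene NEK7 rose by 1.06 ± 0.08, from 10.28, 10.08 and 10.03 to 11.06, 11.26 and 11.25, and the midzone and ring genes ANLN and PRC1 by 0.64 ± 0.07 and 0.50 ± 0.05, while HMMR and the kinetochore gene SPC24 fell by 0.36 ± 0.08 and 0.36 ± 0.06. The 7 mitotic falls numbered 4 without control replicate 1 or control replicate 2, 3 without s18076 replicate 2 and 2 without s18076 replicate 3. CDK1 (0.07 ± 0.10), AURKA (-0.03 ± 0.06) and TOP2A (0.09 ± 0.06) were not called. Of 69 centrosome and cilium genes 9 rose and 10 fell, with the ciliary genes BBS12 and BBS7 at 0.66 ± 0.09 and 0.49 ± 0.09, CEP120 at 0.48 ± 0.06 and CETN3, a centriole protein, at -0.41 ± 0.07.

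HEK293 cells express neuronal genes, and some of these fell. Of 43 genes that REST represses outside neurons 9 fell (20.9%) and 2 rose (4.65%), where 8.62% and 10.3% of all genes did. Of the 43, 23 were among the dimmest 40% of genes. NEFL, the light neurofilament chain, read 11.21, 11.12 and 11.01 in the control arrays (log2 intensity) and 10.22, 10.22 and 10.18 with s18076, and fell by 0.91 ± 0.06, and its other probe sets fell by 0.50 and 0.48. CPLX1, which clamps vesicle fusion, fell by 0.59 ± 0.10 and CHGB, a granin of secretory vesicles, by 0.57 ± 0.09. The kinesin gene KIF5C rose by 0.72 ± 0.06 on its brightest probe set and gave 0.80 and -0.04 on others, neither called. REST itself gave 0.15 ± 0.10, not called.

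The 9 measured markers fixed for HEK293 identity were present in both groups, and none was among the dimmest 40% of genes. Their summed linear intensity was 7001 to 7105 in the control arrays and 4543 to 4654 with s18076, and without NEFL and NEFM it was 2133 to 2199 and 2202 to 2233. EYA1, a cofactor of kidney development, fell by 0.31 ± 0.07 on its brightest probe set, where another rose by 0.28, and WT1 and GATA3 rose by 0.26 ± 0.07 and 0.20 ± 0.06. The call of WT1 was lost without control replicate 1, control replicate 2, s18076 replicate 2 or s18076 replicate 3 (limma adjusted p 0.0538 to 0.0672), and that of GATA3 without control replicate 1, control replicate 2, s18076 replicate 1 or s18076 replicate 2 (limma adjusted p 0.0642 to 0.0987); the other GATA3 probe sets gave 0.06 and -0.06, not called. PAX2 (0.18 ± 0.07), PAX8 (-0.11 ± 0.08), LHX1 (0.09 ± 0.07) and SALL1 (-0.07 ± 0.07) were not called. Most fibroblast, blood and endothelial markers were dim: 7 of 10, 7 of 8 and 7 of 8 were among the dimmest 40% of genes. Of the carcinoma markers 3 of 6 were. Of the blood, carcinoma and endothelial markers 0 were called. At an unadjusted p under 0.05 they held 0, 1 and 0 genes. Of the fibroblast markers LUM and COL3A1, both dim, fell by 0.55 ± 0.07 and 0.47 ± 0.13, and the call of COL3A1 was lost without control replicate 1, control replicate 2 or s18076 replicate 3 (limma adjusted p 0.0572 to 0.0991). The summed intensity of each of these 4 lists overlapped between the groups, with fibroblast markers at 1159 to 1223 in the controls and 1122 to 1177 with s18076.

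Gene families taken by symbol were counted beside the pathway lists. Over all genes 10.3% rose and 8.62% fell. Of zinc finger genes named ZNF 92 of 466 rose (19.7%) and 21 fell (4.51%), with a median of 0.07. Rises above the share over all genes were also counted in RAB GTPases, which steer vesicles (15 of 57, 26.3%, with 5 lower, 8.77%), in the cullin-3 adaptors of the KLHL, KBTBD and KCTD type (15 of 58, 25.9%, with 5 lower, 8.62%) and in HOX genes (9 of 28, 32.1%, with 2 lower, 7.14%). Regulatory subunits of protein phosphatases rose in 15 of 63 (23.8%, with 4 lower, 6.35%), DNAJ cochaperones in 11 of 41 (26.8%, with 4 lower, 9.76%) and subunits of the vacuolar proton pump in 6 of 20 (30%, with 1 lower, 5.0%). Of mitochondrial ribosomal proteins 17 of 75 fell (22.7%) and 3 rose (4.0%), with a median of -0.08, and of the METTL and TRMT methyltransferases, many of which modify RNA, 11 of 37 fell (29.7%) and 1 rose (2.7%). Solute carriers fell in 52 of 342 (15.2%) and proteins named TMEM in 39 of 213 (18.3%), while their rises, 35 (10.2%) and 21 (9.86%), were near the share over all genes. Against s18075, 12 mitochondrial ribosomal proteins of 75 were lower and 3 higher, where 4.44% and 6.57% of all genes were. Of 44 keratins 0 were called, and 2 had an unadjusted p under 0.05 in limma. Of 82 olfactory receptors 2 were called. Of these families 39 and 80 members were among the dimmest 40% of genes, where calls were rare. The RAB rises numbered 8 without s18076 replicate 3, and the RAB falls 1 without control replicate 1, control replicate 3 or s18076 replicate 2, 3 without control replicate 2 and 2 without s18076 replicate 3. The DNAJ falls numbered 2 without control replicate 2 or control replicate 3 and 1 without s18076 replicate 2, and the rises of mitochondrial ribosomal proteins 1 without s18076 replicate 1 or s18076 replicate 3.

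**Figure D5:**
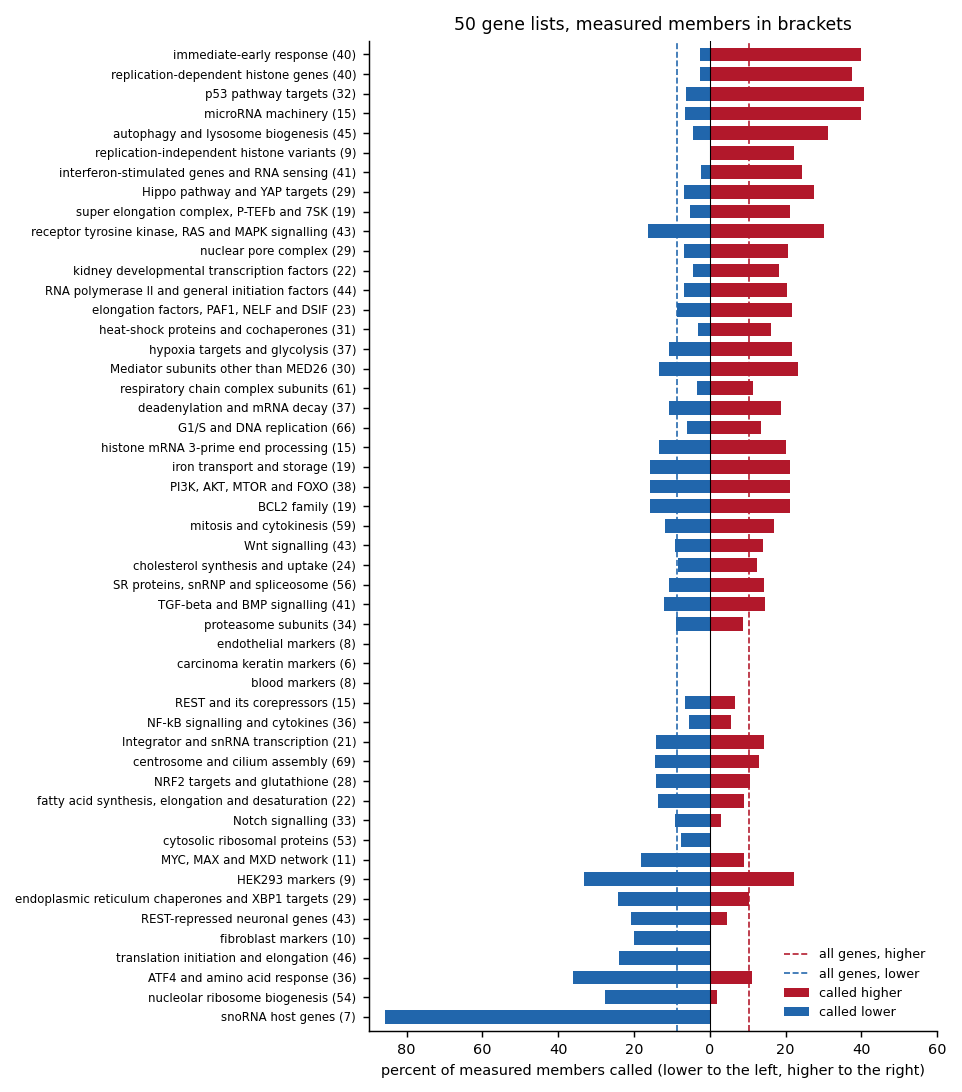
Percent of the measured members of each of 50 gene lists (number in brackets) called lower (blue, to the left) and higher (red, to the right), with the shares over all genes, 8.62% and 10.3%, as dashed lines. Immediate-early, histone, p53 and microRNA machinery lists reach 37.5% to 40.6% higher, and snoRNA host genes 85.7% lower.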

How the data were processed

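Affymetrix arrays of 54675 probe sets measured RNA of HEK293T cells, 12 arrays in 4 groups of 3, grouped by the siRNA in each label. Per the labels' protocols, 300 ng of total RNA was used per array, and per the submitters' processing notes values were made with RMA in affy 1.24.2. The deposited values are linear intensity (4.36 to 33219, array medians 72.3 to 73.8), so log2 was taken with no pseudocount. RMA fits all arrays to 1 distribution, so a change in total RNA per cell would not be seen, and arrays give no read depth.

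Of the probe sets, 41091 name 1 gene, 1801 several, 11721 none, and 62 are controls. Only the first were used, and the brightest of a gene stood for it (19775 genes, 10523 with several probe sets). Symbols were checked against RefSeq through 41037 Entrez matches, and 0 changed.

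Group means were fitted with limma 3.58.1 (R 4.3.3, lmFit and eBayes, 8 residual degrees of freedom) on all 12 arrays, with Benjamini-Hochberg adjustment over all genes and a threshold of 0.05. The script was tested on simulated data. Genes named are MED26, the 14 largest rises and falls, the 6 largest each way set apart from both other siRNAs, up to 6 called members of each list, all called histone genes, and uncalled members for their values. Names of the LOC, CnorfN, FAM, KIAA and LINC type and antisense names were passed over outside the snoRNA host list. The members and lists were chosen with earlier results of these data known, and 4 family patterns were narrowed after their members were seen. There were 50 lists and 34 families, with 1585 of 1764 written members measured. The 19 alternatives, among them other scalings, probe sets, a replicate block and each array left out, are given in the closing section.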

Additional observations from a re-analysis of the deposited data

How the results depend on the processing

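MED26 kept its fall and its call under all 19 alternatives, but fell by only 0.40 with the mean of all probe sets, which made 14 of the 31 leading changes (MED26, the largest and those set apart) more than 1.5 times smaller. Of the 24 leading genes that all 19 alternatives could read, 22 kept their call; the exceptions, ZNF226 (0.15, not called) and TMEM245 (-0.013), came from probe sets without an _x or _s suffix. CTDSPL, ENPP5, H2BC5, H2BC21, LGR5, MAGEB2 and SH3BGRL, each too dim or without such a probe set for 1 alternative, kept theirs under the other 18. That choice also turned the sign of H2AZ2 (-0.12), ASNS (0.042), HEXIM1 (-0.17), BTG3 (-0.10), KIF5C (-0.0397), GATA3 (-0.0582) and EYA1 (0.28, itself called), since it reads another probe set. Of 200 called genes in the text 142 had a value under every alternative, and 95 of these kept their call under all; of the 58 others 41 kept it wherever they had a value. Of the 50 uncalled genes 23 changed sign under some alternative. The 2037 rises and 1704 falls became 1230 and 960 at an adjusted p under 0.01, 1640 and 2192 after centring on array medians, 1429 and 1139 with the 6 arrays alone, and 1527 to 1825 and 1273 to 1537 with 1 array left out. Genes set apart upwards, 182, were the least stable: 312 without the dimmest 40% of genes, 96 with the mean of all probe sets, 290 with array weights, 350 with a block of replicate 1 against 2 and 3, 96 with replicates 2 and 3 only, 64 at an adjusted p under 0.01, and 92 to 200 with 1 array left out. Those set apart downwards, 269, numbered 156 at an adjusted p under 0.01. The cause of these shifts was not tested. With replicate number as a block, 2554 genes rose and 2126 fell, with 2030 and 1689 of the calls kept, and 285 were set apart upwards; same-numbered arrays of control and s18076 had deviations that correlated at 0.35 for number 1, -0.02 for number 2 and 0.17 for number 3, so the numbers were not taken as pairs. Of 110 list counts of 3 or more, 31 moved by over 1.5 times when 1 array was left out, and of 58 smaller counts 24 did. Dim genes limit what these arrays can show, since few calls were made among the dimmest 40%.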
